A study of Mus musculus with 4 samples.

Results

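The Wnt ligands measured here are 10 genes of the family, *Wnt2*, *Wnt2b*, *Wnt4*, *Wnt5a*, *Wnt5b*, *Wnt6*, *Wnt7a*, *Wnt7b*, *Wnt9a* and *Wnt11*, in the tracheoesophageal anlage of the mouse embryo at E9.75. They were found by the gene symbol of each probe set in the platform annotation, and they account for 20 of the 45101 probe sets of the array and for 10 of the 13139 genes tested. The embryos were of the BALB/c strain, and the labels give no allele or treatment for any sample. The anlage is the foregut tube that later gives rise to the esophagus and the respiratory organs. The tube was taken between pharynx and lung bud, and its dorsal and ventral parts were separated manually, with 2 arrays for each. Each sample thus holds epithelium and mesenchyme together, and the number of embryos per sample was not found in the labels. The labels call the arrays biological replicates without naming litters or pools. Each p-value thus reflects no more than the spread among these 4 arrays, shared in part over all genes, and that spread may be partly technical. The deposited values are RMA values, 1 per probe set, which are read here as log2 from their range of 2.36 to 15.02.

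Wnt ligands are secreted, lipid-modified glycoproteins. They are acylated by the enzyme Porcupine, carried to the cell surface by Wntless and bound by Frizzled receptors. With the co-receptors Lrp5 and Lrp6 this stabilises β-catenin, while other responses to Wnt ligands run through receptors such as Ror2 and Ryk. In the mouse foregut, *Wnt2* and *Wnt2b* of the ventral mesenchyme are together required for the lung to be specified. *Wnt7b* is known from the airway epithelium, *Wnt5a* from the lung mesenchyme, and *Wnt4* from the mesenchyme around the esophagus.

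Among the 10 ligands, *Wnt4* and *Wnt5b* were higher in the dorsal part, and *Wnt2*, *Wnt7b* and *Wnt11* were higher in the ventral part. The largest differences were those of *Wnt2*, 6.63-fold higher ventrally, and *Wnt4*, 5.54-fold higher dorsally. *Wnt7b* and *Wnt11* differed by 1.98-fold each and *Wnt5b* by 1.60-fold. The other 5 ligands, *Wnt2b*, *Wnt5a*, *Wnt6*, *Wnt7a* and *Wnt9a*, did not pass the test. A gene was represented by its brightest probe set, and it was tested with limma where that probe set exceeded the 40th percentile on 2 arrays or more. An adjusted p under 0.05 over all genes counted as passing. All 10 ligands passed that filter. Of all genes tested, 8.88% passed the test, with 4.79% higher dorsally and 4.09% higher ventrally, and the ligands were listed with results of these arrays known. The median difference, dorsal minus ventral on the log2 scale, was -0.09 over the 10 ligands and 0.07 over all genes tested, and the median size of the difference was 0.52 and 0.18. With 2 arrays per part, the smallest two-sided p of an exact permutation test is 0.333, so none is given for single genes.

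**Figure D1:**
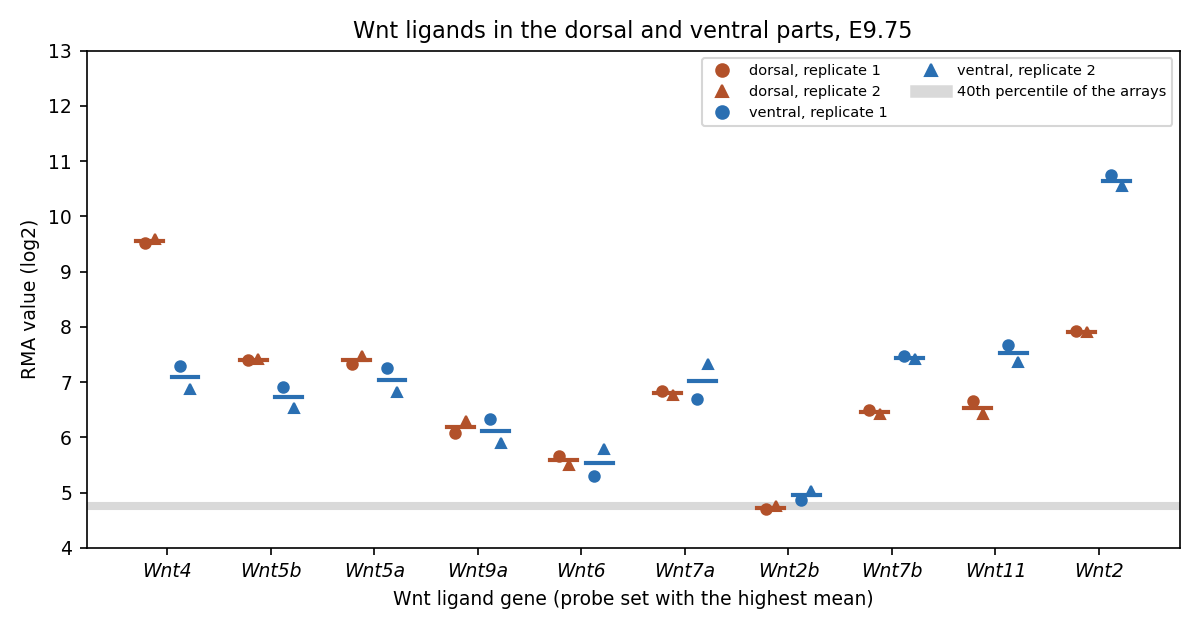
RMA values (log2, vertical axis) of the 10 Wnt ligands in the dorsal and ventral parts, where each point is an array and each bar the mean of a part. The arrays of the parts are farthest apart for *Wnt4*, at 9.52 and 9.60 against 7.30 and 6.88, and for *Wnt2*, at 7.92 and 7.92 against 10.75 and 10.54, and *Wnt2b* lies at the band that marks the 40th percentiles.

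The arrays themselves differed in their spread. The tested genes differed between replicates by a median of 0.08 dorsally and 0.26 ventrally, and the upper quartile was 7.75 on ventral replicate 2 against 7.995 to 8.02 on the other arrays. Markers of foregut mesenchyme and epithelium were present in both parts, with a mean of 9.48 dorsally and 9.34 ventrally for *Foxf1* and of 8.96 and 9.32 for *Foxa2*. Of 9 tested markers of foregut and lung mesenchyme, *Osr1*, *Tbx4* and *Tbx5* were higher ventrally, at -0.71, -0.94 and -1.34. None was higher dorsally, and 6, among them *Foxf1*, did not pass the test. Of the tested markers, 13 of 13 of heart muscle, 7 of 7 of cardiac progenitors and 3 of 5 of hepatic cells were higher ventrally. Dorsally, 4 of 5 of mesothelium, 5 of 6 of neural crest and 2 of 5 of blood were higher, while *Ednrb* of the neural crest list was higher ventrally. The summed linear signal of the blood list was 54828 to 55047 dorsally and 36209 to 44177 ventrally. In such samples fewer cells of a type and less RNA per cell cannot be told apart.

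The windows before the annotated starts of the 3 ligands with the largest differences for which a window was held are shown here, so that their composition can be set beside their values. They are the 250 bases upstream of a RefSeq start on the assembly GRCm38.p6, printed 5′ to 3′ on the strand of the gene. Windows were held for 8 of the 10 ligands, and *Wnt5a* and *Wnt7b* had none. Capitals mark matches to any of 6 motifs searched on both strands, which were CTTTGAT for TCF/LEF factors, TGTTTAC for forkhead factors, AGATAA for GATA factors, GACCACCCA for GLI factors, GGGCGG for the GC box of SP and KLF factors, and TATAAA for the TATA box.
*Wnt4*, chr4:137277385-137277634, plus strand: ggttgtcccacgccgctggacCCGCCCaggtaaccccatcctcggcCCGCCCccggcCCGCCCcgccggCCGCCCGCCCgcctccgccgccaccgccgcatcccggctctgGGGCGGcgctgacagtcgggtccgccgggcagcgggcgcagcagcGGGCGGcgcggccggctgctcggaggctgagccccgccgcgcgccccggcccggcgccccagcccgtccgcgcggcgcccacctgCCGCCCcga
*Wnt2*, chr6:18030446-18030695, minus strand: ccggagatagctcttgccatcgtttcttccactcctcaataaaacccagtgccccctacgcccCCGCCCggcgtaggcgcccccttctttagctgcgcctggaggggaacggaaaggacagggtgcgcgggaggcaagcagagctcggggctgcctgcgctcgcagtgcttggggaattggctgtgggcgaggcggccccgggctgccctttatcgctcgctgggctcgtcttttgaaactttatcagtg
*Wnt11*, chr7:98834862-98835111, plus strand: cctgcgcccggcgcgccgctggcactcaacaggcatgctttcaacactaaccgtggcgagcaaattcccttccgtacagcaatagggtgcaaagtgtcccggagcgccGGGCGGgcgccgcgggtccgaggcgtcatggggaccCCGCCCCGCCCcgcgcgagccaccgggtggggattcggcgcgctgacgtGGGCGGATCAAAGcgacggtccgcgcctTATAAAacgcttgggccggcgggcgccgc

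The window of *Wnt4*, the dorsal ligand, was 85.2% G and C with 44 CpG sites and 8 matches to the GC box, some of which overlap. The window of *Wnt2*, the ventral ligand, was 63.6% G and C with 20 CpG sites and 1 match to the GC box. Windows of ligands that did not pass the test were also rich in G and C, with 84.4%, 48 CpG sites and 5 GC boxes for *Wnt9a*, 79.6% and 6 GC boxes for *Wnt6*, and 77.6% and 6 GC boxes for *Wnt7a*. Of the 3 windows of *Wnt5b*, a dorsal ligand, the one with the most G and C (75.2%) held 1 GC box, as that of *Wnt2* did. Another *Wnt5b* window held 2 GC boxes and 1 TCF/LEF match on the plus strand, and the last held none of the 6 motifs. The median over all 32851 windows of the table was 52.4% G and C, and 32.7% of them held a GC box. The first window of *Wnt11* held 4 GC boxes, 1 TCF/LEF match on the minus strand whose last base lies 45 bases before the start, and 1 TATA box whose last base lies 24 bases before it. Over all windows, 3.21% held the TCF/LEF letters and 12.4% the TATA box. *Wnt11* has a further annotated start with a window that held none of the 6 motifs, and the annotated span of *Wnt2* reaches beyond the start used here. Neither *Wnt4* nor *Wnt2* had a match to the TCF/LEF, forkhead, GATA or GLI letters, which says only that these letters are not in these windows. The forkhead, GATA and GLI letters were in 3.17%, 9.99% and 0.225% of all windows.

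*Wnt4*, also known for its part in kidney and gonad development, had dorsal RMA values of 9.52 and 9.60 and ventral values of 7.30 and 6.88. Both dorsal arrays exceeded both ventral arrays, as for 33.3% of all genes tested. The log2 difference was 2.47 ± 0.18 (SE, n = 2 per part, limma adjusted p = 1.06e-09), which ranked 30 among the dorsal differences of all genes tested. The second probe set of *Wnt4* read 8.12 and 8.02 dorsally against 5.83 and 6.43 ventrally, a difference of 1.94 ± 0.21 (SE, limma adjusted p = 0.000213 over the 23336 probe sets tested). Both probe sets thus separated the parts, and the arrays numbered 1 and 2 gave differences of 2.23 and 2.71 with the first and of 2.29 and 1.59 with the second. On the ventral arrays the first probe set lay at percentiles 68.9 and 67.1 and the second at 54.8 and 62.5.

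The 3 genes whose values over the 4 arrays lay closest to those of *Wnt4*, after each gene was centred on its own mean, were *Lrrn1*, *Shisa3* and *Upk3b*. Their root mean square differences from *Wnt4* were 0.05, 0.08 and 0.08 on the log2 scale. *Upk3b*, a uroplakin gene of mesothelium, had means of 8.89 dorsally and 6.33 ventrally. It belongs to a list of 5 mesothelial markers, of which *Wt1*, *Upk3b*, *Bnc1* and *Aldh1a2* were higher dorsally, at differences of 2.96, 2.56, 3.60 and 0.996, while *Tbx18* did not pass the test. On the linear scale the summed signal of this list was 5210 to 5249 dorsally and 2388 to 2836 ventrally. *Aldh1a2* made up 68.1% to 71.9% of that sum on each array. With this gene left out, the sum was 1522 to 1669 dorsally and 671 to 904 ventrally. On both ventral arrays *Wt1* was under the 40th percentile. Of 6 tested neural crest markers, 5 were higher dorsally and 1 ventrally, and the summed signal was 2322 to 2412 dorsally and 1075 to 1087 ventrally. With *Ret* left out, that sum was 1587 to 1748 dorsally and 1046 to 1065 ventrally. None of the 4 tested neural tube markers passed the test, and the summed signal of that list was 217 to 283 dorsally and 213 to 246 ventrally. The part of these cells in the difference of *Wnt4* was not tested.

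*Wnt5b* and *Wnt5a* are close relatives that act largely without β-catenin, on cell shape and polarity. *Wnt5b* read 7.39 and 7.42 dorsally against 6.92 and 6.54 ventrally. The arrays did not overlap, and the log2 difference was 0.68 ± 0.18 (SE, limma adjusted p = 0.0149). The other *Wnt5b* probe set read 6.36 and 6.66 dorsally against 6.12 and 5.85 ventrally, a difference of 0.52. Both probe sets lay higher dorsally, but neither passed the test over the probe sets (adjusted p = 0.0564 and 0.160 from limma), where 5.84% of all probe sets passed. Both are of a kind that can match several transcripts or genes. *Wnt5b* did not pass without dorsal replicate 1 (0.69, adjusted p = 0.336) or without dorsal replicate 2 (0.66, adjusted p = 0.395), and its limma adjusted p ran from 0.00187 to 0.395 across the settings tried.

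*Wnt5a* has 4 probe sets, and none passed the test over probe sets. The brightest read 7.33 and 7.47 dorsally against 7.25 and 6.81 ventrally, a difference of 0.37 (95% confidence interval -0.01 to 0.75, adjusted p = 0.272 from limma). The next gave 6.93 and 6.68 against 6.38 and 6.02, and the third 6.14 and 6.11 against 5.58 and 5.55. In these 3 probe sets both dorsal arrays lay above both ventral arrays, at differences of 0.37, 0.61 and 0.56, as for 48.2% of all probe sets tested in either direction. The weakest, at 4.80 and 4.66 against 4.35 and 4.90, overlapped. Without ventral replicate 1 the difference of *Wnt5a* was 0.59, but the median of all genes then lay at 0.18. *Wnt5a* passed the test only in that setting, where the spread comes from the dorsal arrays alone. More of all genes passed there than with all 4 arrays.

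*Wnt2*, a ligand of the lung mesenchyme that signals through β-catenin, was measured by 1 probe set. It read 7.92 on each dorsal array and 10.75 and 10.54 ventrally. Both ventral values lay above both dorsal ones, as for 17.6% of all genes tested. The log2 difference was -2.73 ± 0.17 (SE, n = 2 per part, limma adjusted p = 8.13e-11). The arrays numbered 1 gave -2.83 and those numbered 2 gave -2.63. Dorsally *Wnt2* still lay at percentile 74.3 of each array, above all ligands but *Wnt4*.

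The 3 genes closest to *Wnt2* over the arrays were *Shh*, *Plcb1* and *Prnp*, at root mean square differences of 0.05, 0.07 and 0.09 on the log2 scale. *Shh*, the Hedgehog ligand of the foregut epithelium, had means of 10.41 dorsally and 13.07 ventrally. Its log2 difference was -2.66, beside -2.73 for *Wnt2*.

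*Wnt2b*, the relative of *Wnt2* that acts with it in the mouse lung field, was the ligand with the lowest signal in both parts. Its only probe set read 4.71 and 4.75 dorsally against 4.87 and 5.03 ventrally. Both ventral values lay higher, but the log2 difference was -0.22 (95% confidence interval -0.57 to 0.13, adjusted p = 0.522 from limma). These values lie between percentiles 39.7 and 43.5 of the arrays, and on dorsal replicate 1 the probe set was below the 40th percentile. Among the settings tried it passed the test only without ventral replicate 1, at -0.31 (limma adjusted p = 0.0368, against up to 0.9999 in the others).

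*Wnt11*, a ligand of the non-canonical kind that is also known from the developing heart, was measured by 1 probe set. It read 6.65 and 6.42 dorsally against 7.68 and 7.37 ventrally, with no overlap. The log2 difference was -0.98 ± 0.18 (SE, limma adjusted p = 0.000454), and the arrays numbered 1 and 2 gave -1.03 and -0.94. Without dorsal replicate 2 it did not pass the test (-0.87, adjusted p = 0.0833 from limma, within 8.86e-07 to 0.0833).

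Markers of heart tissue were higher in the same part as *Wnt2* and *Wnt11*. All 13 tested markers of a list of 15 heart muscle genes were higher ventrally, as were 7 of 7 cardiac progenitor genes, among them *Isl1* at -1.66 and *Nkx2-5* at -2.90. The summed signal of the heart muscle list was 2516 to 2590 dorsally and 18234 to 23635 ventrally, and that of the cardiac progenitors 2858 to 2959 and 10369 to 12865. On both dorsal arrays *Myh6*, *Ryr2*, *Myl2* and *Nppa*, or 4 of the 15 heart muscle genes, were under the 40th percentile, and on both ventral arrays *Myl2* and *Nppa* were. The part of heart cells or of mesenchyme in the differences of *Wnt2* and *Wnt11* was not tested.

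*Wnt7b*, a ligand of the airway epithelium, gave different results with its 2 probe sets. The brighter read 6.50 and 6.42 dorsally against 7.46 and 7.41 ventrally, without overlap. The log2 difference was -0.98 ± 0.17 (SE, limma adjusted p = 0.000246), with -0.97 from the arrays numbered 1 and -0.996 from those numbered 2. The other probe set, designed on the same sequence record, read 4.69 and 4.54 dorsally against 4.64 and 4.51 ventrally and lay below the 40th percentile of all 4 arrays, so it was not tested. With the mean of all probe sets, *Wnt7b* did not pass the test (-0.47, adjusted p = 0.0766 from limma, within 9.54e-07 to 0.0766).

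Of 9 foregut epithelial markers, *Foxa1* and *Shh* were higher ventrally and *Sox2* was higher dorsally, while 6 did not pass the test. *Sox2* encodes a transcription factor of the epithelium of esophagus, trachea and bronchi. The summed signal of this list was 11638 to 12262 dorsally and 19890 to 24724 ventrally, and without *Shh* it was 10307 to 10863 and 12107 to 15172. Of 4 respiratory endoderm markers, *Irx1*, *Irx2* and *Id2* were higher ventrally and *Nkx2-1* was not called (-0.10). *Nkx2-1* gave a low signal, at 5.03 to 5.25, below the median of every array. The summed signal of these 4 markers was 2775 to 2924 dorsally and 6153 to 6166 ventrally. *Id2* made up 87.7% to 92.1% of that sum on each array, and without it the sum was 232 to 266 dorsally and 647 to 755 ventrally. The part of epithelial cells in the difference of *Wnt7b* was not tested.

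*Wnt7a*, known from limb ectoderm and for patterning the female reproductive tract, has 3 probe sets, which overlapped between the parts in the 2 that were tested. The brightest read 6.83 and 6.76 dorsally against 6.70 and 7.33 ventrally, so that the ventral arrays lay on either side of the dorsal ones. Its log2 difference was -0.22 (95% confidence interval -0.62 to 0.18, adjusted p = 0.589 from limma). The next gave 4.98 and 5.06 against 4.74 and 5.54, where the ventral arrays again lay on either side. The third, at 3.40 and 3.32 against 3.54 and 3.58, was below the 40th percentile of all arrays and was not tested. Without ventral replicate 1 the difference of the gene was -0.53, and without ventral replicate 2 it was 0.09. The gene passed the test only without ventral replicate 1, where the spread comes from the dorsal arrays alone. More of all genes passed there than with all 4 arrays.

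*Wnt6*, a ligand of epithelia that is known from kidney tubule induction, read 5.66 and 5.51 dorsally against 5.31 and 5.78 ventrally, which overlapped. The log2 difference was 0.04 (95% confidence interval -0.34 to 0.42, adjusted p = 0.930 from limma). Its other probe set read 3.96 and 4.21 dorsally against 4.02 and 3.63 ventrally, below the 40th percentile of every array.

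*Wnt9a*, a ligand of the forming joints, read 6.07 and 6.29 dorsally against 6.34 and 5.91 ventrally, which overlapped. The log2 difference was 0.06 (95% confidence interval -0.32 to 0.44, adjusted p = 0.901 from limma). Its other probe set, at 3.36 and 3.56 against 3.37 and 3.49, lay below the 40th percentile of every array and was not tested.

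**Figure D2:**
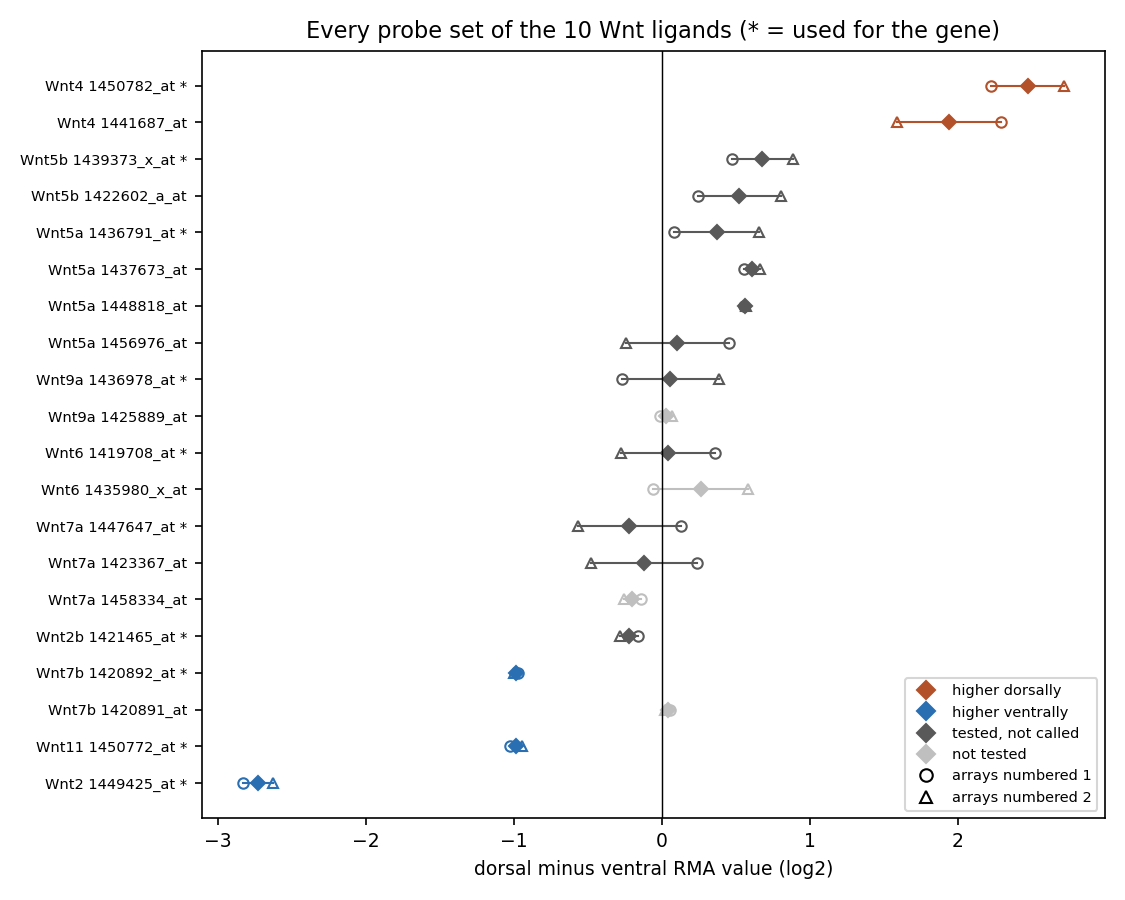
Difference in RMA value between the parts (log2, dorsal minus ventral, horizontal axis) of all 20 probe sets of the 10 ligands, with a diamond at the difference of the means and open marks at the differences within the arrays numbered 1 and 2. Both *Wnt4* probe sets lie at 1.94 or above, the *Wnt2* probe set lies at -2.73, and 1 of the 2 *Wnt7b* probe sets lies near 0, at 0.04.

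Over all, 7 of the 10 ligands had arrays that did not overlap between the parts, 3 with the dorsal arrays above and 4 with the ventral arrays above. Of all genes tested, 50.9% had no overlap, and 7 of 10 was read against that share. Of the 20 probe sets, 16 passed the filter, 2 of these were higher dorsally, 3 were higher ventrally and 11 did not pass the test. Of the 23336 probe sets tested over all genes, 5.84% passed, with 765 higher dorsally and 597 ventrally. The probe sets of a gene share its RNA and the 4 arrays, and they are not independent samples.

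The order of the ligands by the signal of their brightest probe sets changed between the parts. In the dorsal part *Wnt4* was first, with a mean RMA value of 9.56 ± 0.05 (SD, n = 2). *Wnt2* followed at 7.92, *Wnt5b* at 7.41, *Wnt5a* at 7.40, *Wnt7a* at 6.80, *Wnt11* at 6.54 and *Wnt7b* at 6.46. The ranges of *Wnt5b* and *Wnt5a* overlapped, as did those of *Wnt11* and *Wnt7b*, while the other neighbours were apart. Compared within each array, *Wnt5b* and *Wnt5a* changed places. *Wnt11* lay above *Wnt7b* on both dorsal arrays, though barely on dorsal replicate 2 (6.424 and 6.416). *Wnt9a* at 6.18, *Wnt6* at 5.59 and *Wnt2b* at 4.73 were the last 3.

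In the ventral part *Wnt2* was first, at 10.65 ± 0.14 (SD, n = 2), and lay 3.12 above the next ligand. *Wnt11* at 7.52 and *Wnt7b* at 7.44 followed, and their arrays overlapped. *Wnt4* at 7.09, *Wnt5a* at 7.03, *Wnt7a* at 7.02 and *Wnt5b* at 6.73 each overlapped in range with the next of these 4. Compared within each array, *Wnt4* lay above *Wnt5a*, and *Wnt5a* above *Wnt5b*, on both ventral arrays. *Wnt7a* had no steady place, below *Wnt5b* on ventral replicate 1 and above *Wnt4* on ventral replicate 2. *Wnt9a* at 6.12, *Wnt6* at 5.54 and *Wnt2b* at 4.95 were again the last 3, in the same order as dorsally. *Wnt4* thus led the dorsal part, and ventrally its arrays overlapped with those of *Wnt5a*, *Wnt7a* and *Wnt5b*. By the brightest probe sets, *Wnt11* and *Wnt7b* lay below *Wnt5a*, *Wnt5b* and *Wnt7a* dorsally and above them ventrally. The other *Wnt7b* probe set had means of 4.61 dorsally and 4.58 ventrally, and the other *Wnt4* probe set 8.07 and 6.13. RMA values carry no scale per length and probe sets bind their targets with unequal strength. The order is thus one of signals on the arrays and not of RNA amounts.

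**Figure D3:**
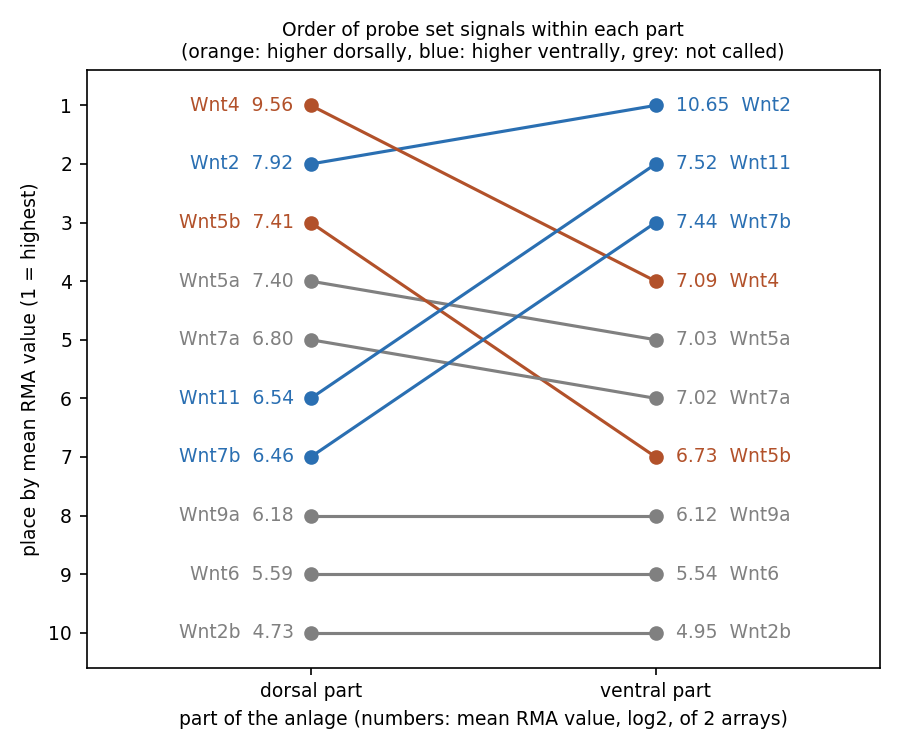
Place of each ligand by the mean RMA value of its brightest probe set (log2, vertical axis, 1 is the highest) in the dorsal and ventral parts. Lines join the places of 1 gene. Neighbours whose arrays overlap are drawn in the order of their means. *Wnt4* at 9.56 and *Wnt2* at 10.65 lead the dorsal and ventral parts, and the last 3 places are held by *Wnt9a*, *Wnt6* and *Wnt2b* in both.

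The other 9 Wnt ligands of the mouse have 12 probe sets on the array. Of these genes, *Wnt8b* and *Wnt10b* passed the filter, at differences of -0.35 and -0.11, and neither passed the test (limma adjusted p = 0.375 and 0.765). *Wnt10b* had means of 5.54 dorsally and 5.65 ventrally, at percentiles 50.7 to 54.4. That is close to *Wnt6* (5.59 and 5.54) and above *Wnt2b* (4.73 and 4.95) of the 10 ligands. *Wnt1*, *Wnt3*, *Wnt3a*, *Wnt8a*, *Wnt9b*, *Wnt10a* and *Wnt16* did not pass the filter, and *Wnt3* lay lowest, at 2.79 to 2.92 on the 4 arrays.

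Genes that release and receive Wnt ligands were then compared by lists chosen for their roles. For the release of ligands, *Porcn*, *Wls* and *Tmed5* were all tested and none passed, with differences of -0.01, -0.33 and -0.05. Of 17 tested Frizzled receptor and co-receptor genes, *Fzd5*, *Ror1* and *Ror2* were higher dorsally, at 0.70, 1.05 and 0.72, and none was higher ventrally (adjusted p = 0.00965, 0.000525 and 0.00870 from limma). The other 14 did not pass the test, and the median of the list was 0.11. Of all genes tested, 4.79% were higher dorsally and 4.09% ventrally, and the counts of this and the following lists are to be read against these shares. *Ror1* and *Ror2* encode receptor kinases that bind Wnt5a, and their values were 6.39 and 6.34 dorsally against 5.62 and 5.01 ventrally for *Ror1*, and 8.80 and 8.76 against 8.24 and 7.87 for *Ror2*.

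Of 9 tested genes of Wnt antagonists, not all of them secreted, *Sfrp2* was higher dorsally, at 1.01. *Dkk1*, *Sfrp5* and *Trabd2b* were higher ventrally, at -1.23, -0.72 and -0.59, and the median of the list was -0.28. *Dkk1*, which blocks Lrp co-receptors, read 4.89 and 4.68 dorsally against 6.06 and 5.96 ventrally. Among the R-spondins, which raise the response to Wnt ligands, *Rspo2* was higher ventrally at -4.64, and *Rspo3* and *Rspo1* were higher dorsally at 1.80 and 0.55. With their receptors, 2 of 7 tested genes were higher dorsally and 2 ventrally, the other ventral one being *Lgr5*. *Rspo2* read 6.21 and 6.26 dorsally against 10.99 and 10.75 ventrally, so it differed more between the parts than any of the ligands.

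Of 11 tested genes that respond to Wnt signalling through β-catenin, *Sp5* and *Lgr5* were higher ventrally, at -1.22 and -0.62, and none was higher dorsally. The other 9 did not pass the test, and the median was -0.28, where 8.88% of all genes passed in either direction. *Axin2*, a common reporter of this response, read 8.55 and 8.66 dorsally against 8.69 and 8.46 ventrally, a difference of 0.02 (95% confidence interval -0.33 to 0.38, adjusted p = 0.960 from limma). The lists share members, since *Lgr5*, *Znrf3* and *Rnf43* are also in the list of R-spondins and receptors, and *Notum* is in that of antagonists. The medians of -0.28 of the antagonists and of the responding genes are both the value of *Notum*.

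**Figure D4:**
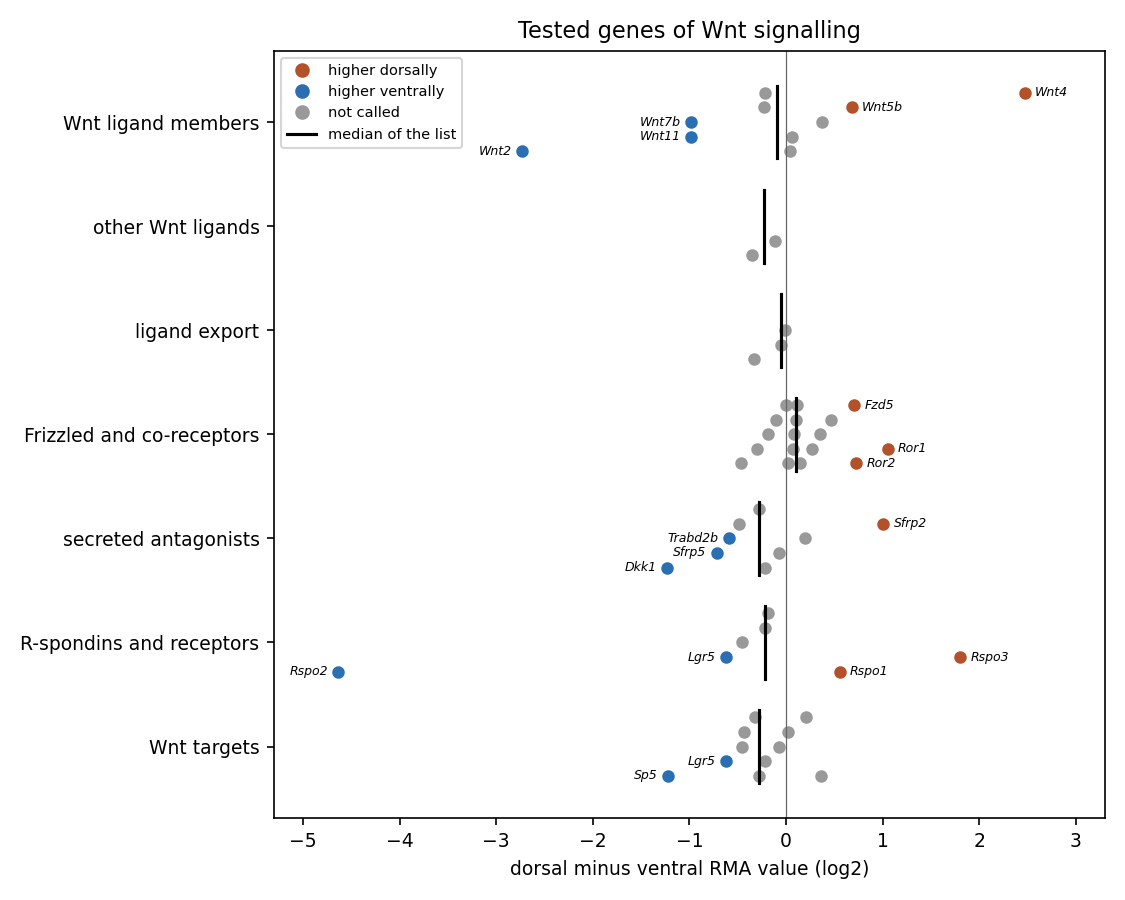
Difference in RMA value between the parts (log2, dorsal minus ventral, horizontal axis) of the tested genes in each list of Wnt signalling. Each point is a gene, its colour gives the limma result, and black bars mark list medians. *Rspo2* at -4.64 and *Wnt2* at -2.73 are the farthest to the ventral side, and *Wnt4* at 2.47 and *Rspo3* at 1.80 are the farthest to the dorsal side.

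The calls of *Wnt4* and *Wnt2* held under all 13 alternatives that were tried, with differences of 2.20 to 2.68 for *Wnt4* and -2.83 to -2.63 for *Wnt2*. Of the other 3 ligands that passed, *Wnt7b* and *Wnt11* were called under 12 of 13 alternatives each and *Wnt5b* under 10 of 12, since without probe sets that match several transcripts *Wnt5b* has none.

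**Figure D5:**
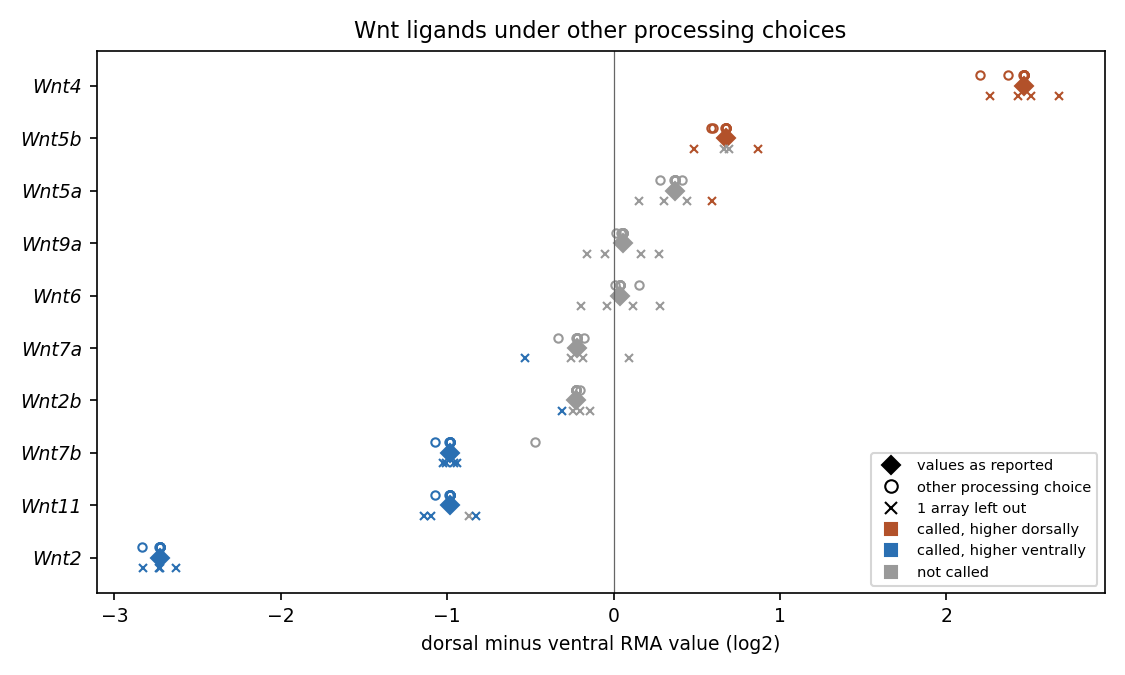
Dorsal minus ventral difference (log2, horizontal axis) of the 10 ligands as reported, under each other processing choice and with each array left out, coloured by the limma call. The points of *Wnt4* lie between 2.20 and 2.68 and those of *Wnt2* between -2.83 and -2.63, while those of *Wnt6*, *Wnt7a* and *Wnt9a* lie on both sides of 0.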

How the data were processed

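Total RNA of the dorsal and ventral parts (100 ng per array) was labelled in 2 cycles and hybridised to Affymetrix mouse arrays. The authors made the deposited log2 values by RMA. The software version was not given in the sources used here. RMA corrects background, normalizes quantiles and gives 1 value per probe set. The values were not normalized further. No detection calls were used, and 2 arrays per part limit the precision.

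Of the 45101 probe sets, 34958 had 1 symbol in the platform annotation from GEO (possibly dated), 932 had several and 9211 had none. Identifiers of 34754 were found in the RefSeq table of GRCm38.p6, and no symbol changed. The dorsal minus ventral contrast was fitted in R 4.3.3 with limma 3.58.1 (lmFit, eBayes), without a replicate term. The eBayes step draws the spread of each gene toward a value shared by all genes, and 1 spread serves both parts. Standard errors of the ligands thus ran only from 0.167 (*Wnt7b*) to 0.193 (*Wnt7a*). Two-sided p-values were given Benjamini-Hochberg adjustment over the 13139 genes, or over 23336 probe sets where single probe sets were tested. The fit was tested on simulated data in which both parts had the same spread, unlike these arrays, so unequal spread was not covered. Percentiles are places among all probe sets of an array, and summed signals are sums of 2 to the power of the RMA value. Every ligand and probe set was named. From the other lists, up to 3 called genes with the largest differences were named, with others chosen after their values were seen. The ligands and lists were chosen with earlier results of these data known.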

Additional observations from a re-analysis of the deposited data

How the results depend on the processing

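Of the ligand counts, 2 were higher dorsally and 3 ventrally. Without probe sets that match several transcripts 1 was higher dorsally, because *Wnt5b* has no other probe set. With each array left out in turn the counts ran from 1 to 3 dorsally and from 2 to 5 ventrally. Over all genes, 629 were higher dorsally and 538 ventrally, and with each array left out these ran from 247 to 4544 and from 276 to 1593, the highest of each without ventral replicate 1. The spread then comes from the dorsal arrays alone, and the lone array is assumed to vary like them. Quantile normalization once more gave 479 dorsal and 635 ventral genes, or 43.0% dorsal instead of 53.9%, with the 5 called ligands the same. The median of all genes was 0.18 without ventral replicate 1 and 9.5e-05 without ventral replicate 2.

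With 1 array left out, the sign of 3 ligands that had not passed the test reversed. *Wnt6* ran from -0.20 to 0.28 and was -0.04 without dorsal replicate 1, *Wnt9a* ran from -0.16 to 0.27 and was -0.05 without dorsal replicate 2, and *Wnt7a* ran from -0.53 to 0.095. With the replicate number as a block, the difference of *Wnt4* stayed at 2.47, the same 5 ligands passed the test, and over all genes 790 were higher dorsally and 678 ventrally. The labels do not say that the numbers pair the samples, and deviations of same-numbered arrays correlated at 0.21. The filter at the 60th percentile left 7 of the 10 ligands to be tested. The cause of these changes was not tested.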
